A study of Mus musculus with 24 samples.

Results

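The loss of WSTF (Wstf∆) was compared with wild-type cells of the same batch (WT) by RNA-seq in mouse embryonic stem cells. WSTF, encoded by Baz1b, is the noncatalytic subunit that defines the WICH complex. The comparison took every library that the labels give as Wstf knock-out, 2 in all, and the 2 WT libraries of the same batch, named batch A, which makes 4 of the 24 RNA-seq libraries of the series. All cells shared the strain background 129S6/SvEvTac, were untreated, and were grown in serum with leukemia inhibitory factor on gelatin, and no feeder cells are named. The deletion was made with CRISPR–Cas9 in cells of that background, the study states that the deletion lines lack detectable protein, and the Wstf∆ data come from one line, so that a difference of that line cannot be told apart from a difference caused by the deletion. The other libraries are 9 WT libraries of 4 further batches and deletions of other ISWI subunits, of which only the 2 Rsf1 deletion libraries (Rsf1∆) were in batch A. Each gene list below was described by how many of its members were differentially expressed genes (DEGs), which had to change more than 2-fold in either direction with a Benjamini-Hochberg adjusted p below 0.01 in edgeR's quasi-likelihood test (|log2 fold change| > 1). A gene is said below to have passed where it met the limit on p alone.

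ISWI remodelers are ATP-driven motors that slide and space nucleosomes. In WICH, WSTF pairs with the ATPase SNF2H (Smarca5), and the complex is known from replication foci, from ribosomal gene transcription and from the phosphorylation of the histone variant H2A.X (H2ax) by WSTF. Embryonic stem cells in serum are a mixture of naive cells, of cells on the way to the formative and primed states, and of a few cells that drift towards extraembryonic endoderm or trophectoderm. Their attachment and spreading feed into the cofactors YAP and MRTF, which act through the DNA-binding factors TEAD and SRF on cytoskeletal and matrix genes.

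The Wstf∆ libraries held 13619367 and 13417755 counts and the WT libraries of batch A 24711280 and 22854001, so that 3 counts corresponded to 0.217 and 0.22 normalized CPM (counts relative to the TMM-scaled library size) in Wstf∆ and to 0.12 and 0.129 in WT. Baz1b, on chromosome 5 (mm10, positions 135187323 to 135246131), was counted at 243 and 269 normalized CPM in WT and at 46.1 and 50.8 in Wstf∆. Its log2 fold change was -2.40 ± 0.09 (SE, n = 2 libraries per group), with an edgeR adjusted p of 7.05e-18, and the remaining reads are counted over the whole gene and do not tell which part of it is transcribed. The WT libraries of batch A lay at the edge of the WT range for several cell states. Over 10 markers of embryonic stem cells they summed to 4500 and 4335 normalized CPM, below the 4789 to 5662 of the other 9 WT libraries, with 5382 and 5390 in Wstf∆. Over 10 markers of primitive endoderm they summed to 4741 and 5223, against 1498 to 4961 in the other WT libraries and 1422 and 1429 in Wstf∆, and 8 of the 10 were decreased DEGs. Trophectoderm markers summed to 281 and 275, against 93.4 to 223 in the other WT libraries and 58.5 and 58.6 in Wstf∆. Fibroblast markers, which would mark feeder cells, did not separate the groups in sum (21.3 and 23 in WT, 25.4 and 21.0 in Wstf∆), although 3 of the 5 tested were decreased and 1 was an increased DEG. In bulk RNA, fewer cells of a type and less RNA per cell cannot be told apart, and the part that such cells have in the results was not tested. Values of the other 9 WT libraries are therefore given beside groups that these markers touch.

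Of 15682 genes tested, 607 were increased (3.87%) and 1031 decreased (6.57%) in Wstf∆. Without a minimum fold, 2567 (16.4%) passed upwards and 2877 (18.3%) downwards, and the median log2 fold change of all genes was -0.03. Decreased genes had the larger folds. Their median log2 fold change was -1.96, or -1.87 with the 40 genes without a read in either Wstf∆ library set at their detection bound, and 501 of them exceeded 4-fold. Among increased genes the median was 1.36 and 92 exceeded 4-fold. Both sets were of lower level than the average gene, with medians of 4.74 (decreased) and 4.19 (increased) normalized CPM in WT against 19 for all genes. In 450 of the increased genes (74.1%) and 647 of the decreased genes (62.8%) both Wstf∆ libraries lay outside the range of all 11 WT libraries of the series.

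**Figure D1:**
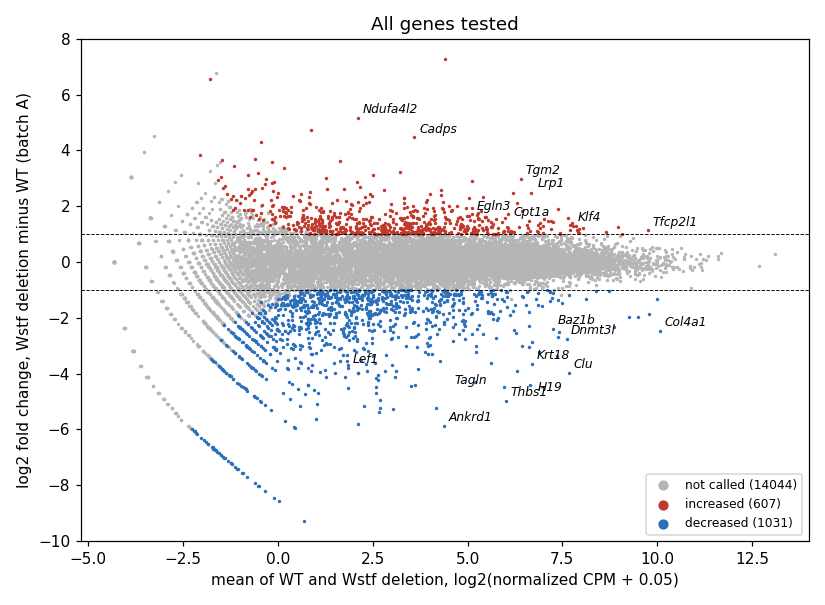
Each point is a gene, with the mean level of both groups on the x axis as log2(normalized CPM + 0.05) and the log2 fold change of Wstf∆ against WT of batch A on the y axis; red points are the 607 increased and blue points the 1031 decreased genes, and dashed lines mark the 2-fold limits. The decreased genes reach further from 0 than the increased genes, and the curved rows at the lower left are genes with few or no reads in Wstf∆, whose fitted fold is not a bound.

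The deepest fall in a list was in targets of YAP and SRF and in contractile genes. All 19 members tested had a log2 fold change below 0, with a median of -2.70 against -0.03 for all genes, although Vcl and Tagln2 lay slightly above 0 (0.15 and 0.16, not passing) with the other 9 WT libraries as the control. A decrease passed at an adjusted p under 0.01 for 17 of them (18.3% of all genes), 10 were decreased DEGs (6.57% of all genes) and none was increased. Ankrd1, a nuclear ankyrin-repeat protein and a standard readout of YAP, fell from 38.2 and 43.7 normalized CPM to 0.722 and 0.659. Its log2 fold change of -5.88 ± 0.20 left both Wstf∆ libraries below the other 9 WT libraries too, which ranged from 3.94 to 18.4. Acta2, the smooth muscle actin, fell from 33.7 and 35.5 to 0.867 and 0.951 (log2 fold change -5.24), with 4.13 to 47.9 in the other WT libraries. Tagln, which codes for the actin-binding transgelin, fell from 118 and 119 to 5.56 and 5.12 (-4.47). The secreted matricellular proteins Ccn2 (302 and 293 in WT, 30.9 and 26.7 in Wstf∆) and Ccn1 (214 and 212, 22.5 and 22.7) fell by 3.37 and 3.24 on the log2 scale. None of these groups of libraries overlapped. Further decreased DEGs were Acta1 (-4.07), the myosin light chain Myl9 (-3.39), the calponins Cnn1 (-3.08) and Cnn2 (-1.53) and the tropomyosin Tpm1 (-2.70). In all 10 decreased DEGs both Wstf∆ libraries lay below all 11 WT libraries.

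The general cytoskeletal members moved less. Filamin A (Flna) changed from 883 and 1012 to 617 and 630 normalized CPM (log2 fold change -0.60), vinculin (Vcl) by -0.36 and Srf itself by -0.30, all with an adjusted p under 0.01 but within 2-fold. Tagln2, the least moved member, stood at 444 and 442 in WT and at 419 and 417 in Wstf∆ (-0.08), which did not pass. Of the 19 members, 6 were also lower in Wstf∆ than in Rsf1∆ as DEGs of the direct contrast (3.16% of all genes lower), among them Ankrd1 at -3.10 and Tagln at -1.95, and none was higher (4.62% of all genes). The direct contrast compares the 2 deletions without WT of batch A as a reference, though these libraries enter the fit's estimate of the spread. In Rsf1∆ itself Ankrd1 stood at 5.84 and 6.07 normalized CPM and Tagln at 19.9 and 21.3, between WT of batch A and Wstf∆. Acta1 stood at 0.429 and 0.489 in Rsf1∆, and its direct difference did not pass (0.58).

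The promoter sequences of this list are shown because its members moved together and the textbook sites of TEAD and SRF can be read in them. RefSeq promoters (GRCm38.p6) were at hand for 16 of the 19 genes, 17 promoters in all, and the 250 bases before the start were searched on both strands for GGAATG, the core of a TEAD site, and for the CArG box, the site of SRF, in its strict form (CC and GG around 6 bases that are each A or T). Near matches to the CArG box were not counted. GGAATG occurred in 10 of the 17 promoters (58.8%), against 11% of the 15447 promoters of tested genes, and a CArG box in 5 (29.4%), against 1.18%. The list was made of known targets of these factors, so that its share of matches is not independent of how it was chosen. Matches also lie in members that moved little, such as Tagln2, Flna and Vcl, and none lies in Cnn1. A match describes the letters only, and the 4 promoters shown were picked because they hold one. In the sequences below, from the strand of the gene, the 250 bases end at the base before the start, and capitals mark GGAATG, its reverse complement CATTCC, or a strict CArG box, which of the 4 is found in Myl9. They come from chr19:36119845-36120094 (Ankrd1, minus strand), chr19:34255374-34255623 (Acta2, minus strand), chr3:145649986-145650235 (Ccn1, minus strand) and chr2:156775214-156775463 (Myl9, plus strand).
Ankrd1: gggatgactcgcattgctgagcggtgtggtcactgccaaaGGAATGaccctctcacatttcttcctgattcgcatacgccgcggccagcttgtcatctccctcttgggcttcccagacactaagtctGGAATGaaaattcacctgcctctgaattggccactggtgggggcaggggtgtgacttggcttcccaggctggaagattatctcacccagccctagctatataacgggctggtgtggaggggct
Acta2: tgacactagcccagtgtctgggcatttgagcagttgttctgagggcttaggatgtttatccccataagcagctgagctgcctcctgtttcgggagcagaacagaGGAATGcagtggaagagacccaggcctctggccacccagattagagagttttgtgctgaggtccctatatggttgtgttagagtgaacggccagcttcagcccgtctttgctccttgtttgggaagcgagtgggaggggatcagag
Ccn1: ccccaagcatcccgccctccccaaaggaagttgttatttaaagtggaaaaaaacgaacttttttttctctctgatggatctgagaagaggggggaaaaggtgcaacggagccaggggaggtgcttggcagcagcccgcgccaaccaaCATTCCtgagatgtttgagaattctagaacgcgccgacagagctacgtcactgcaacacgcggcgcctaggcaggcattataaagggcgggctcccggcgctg
Myl9: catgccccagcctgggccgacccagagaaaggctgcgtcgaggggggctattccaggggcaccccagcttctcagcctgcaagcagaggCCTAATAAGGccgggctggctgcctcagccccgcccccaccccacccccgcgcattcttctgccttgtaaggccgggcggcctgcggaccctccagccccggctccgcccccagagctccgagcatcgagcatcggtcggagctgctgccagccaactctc

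**Figure D2:**
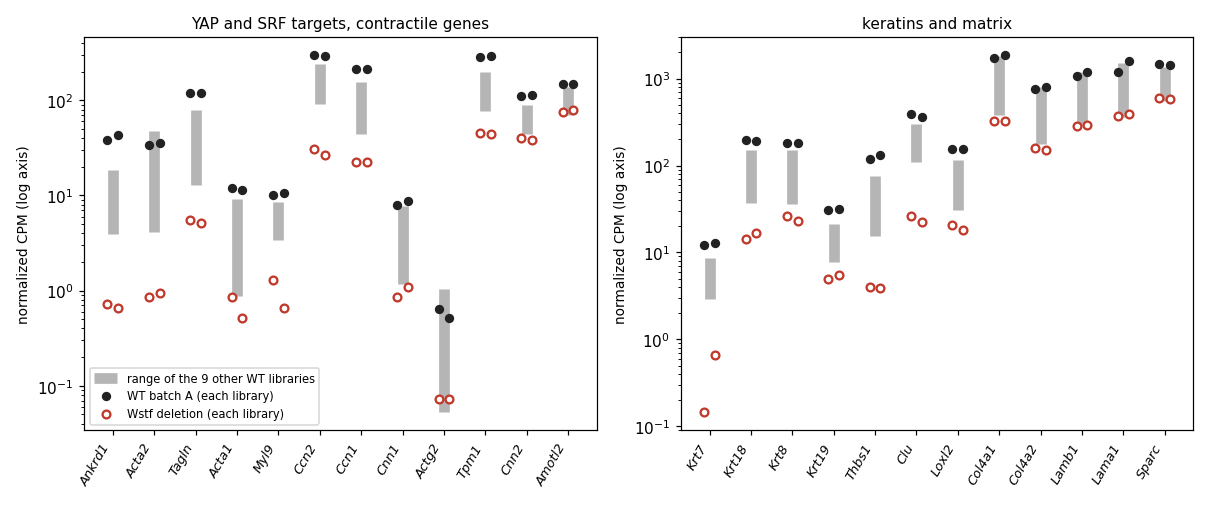
Normalized CPM (log axis) of each library for YAP and SRF targets and contractile genes (left) and for keratins and matrix genes (right); filled points are the 2 WT libraries of batch A, open red points the 2 Wstf∆ libraries and grey bars the range of the other 9 WT libraries. In Ankrd1, Tagln, Ccn2, Ccn1 and Thbs1 the open points lie below the grey bar, whereas in Lama1 and Sparc they lie inside it.

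Simple epithelial keratins and other trophectoderm genes were also decreased. The trophectoderm list held 8 decreased (6.57% of all genes) and 3 increased DEGs (3.87% of all genes) among 14 genes tested, and its median log2 fold change was -1.88. Krt18 and Krt8 form the keratin filaments of the first epithelium of the embryo. Krt18 dropped from 196 and 190 normalized CPM to 14.4 and 16.5 (log2 fold change -3.64), and Krt8 from 183 and 181 to 26.4 and 23.2 (-2.87). Krt7 (-4.95) and Krt19 (-2.59) were decreased, as were the trophoblast regulators Gata3 (-3.07), Hand1 (-2.07) and Ascl2 (-1.57). The keratin family as a whole held 8 decreased DEGs and 1 increased DEG, Krt17 (1.18), among 18 tested (against the same shares of all genes), with Krt7, Krt8, Krt18 and Krt19 on both lists. With the other 9 WT libraries as the control, 5 keratins and 3 trophectoderm genes were decreased DEGs, against 263 of 15651 genes tested with that control. The fall was also present in Rsf1∆, where Krt8 stood at 33.1 and 32.5 and the trophectoderm list summed to 182 and 179, against 219 and 213 in Wstf∆. In the direct contrast 1 trophectoderm gene was lower and 2 were higher in Wstf∆ than in Rsf1∆, and 2 keratins were lower and 3 higher (3.16% of all genes lower and 4.62% higher). The increased trophectoderm members were transcription factors. Gata2 rose from 11.8 and 10.5 to 32.4 and 32.8 (log2 fold change 1.55), Tead4 from 25.7 and 28.9 to 63.4 and 59.6 (1.17) and Eomes from 2.91 and 4 to 7.44 and 6.80 (1.05), and in each both Wstf∆ libraries lay above all 11 WT libraries. Against the other 9 WT libraries, Tead4 (0.91) and Eomes (0.83) were within 2-fold. Cdx2, at about 1 normalized CPM or below in every one of the 4 libraries, was not called (log2 fold change -1.70, edgeR adjusted p of 0.0135). With only the 6 libraries of batch A in the fit it was a decreased DEG (-1.67, edgeR adjusted p of 0.00676).

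Basement membrane genes held 6 decreased DEGs among 15 tested (6.57% of all genes) and no increased one. Laminin and collagen IV are the sheets that primitive endoderm lays down as its basement membrane. Col4a1 fell from 1745 and 1886 normalized CPM to 329 and 323 (log2 fold change -2.48), its head-to-head neighbour Col4a2 from 750 and 803 to 160 and 152 (-2.31), and Lamb1 from 1086 and 1205 to 288 and 296 (-1.97). Lama1 (-1.87) and Sparc (-1.31) were also decreased, as was Col4a5 (-1.53), whose call was lost without Wstf∆ replicate 1 (-1.25), Wstf∆ replicate 2 (-1.85) or WT replicate 2 (-1.17). Lamc1 stayed within 2-fold with all libraries in the fit (-0.93), but not without WT replicate 1 (-1.04). Nidogen 1 (Nid1), nidogen 2 (Nid2), agrin (Agrn), perlecan (Hspg2) and the laminins Lama5 and Lamb2 did not pass, with log2 fold changes between -0.07 and 0.18. The fall was thus uneven over the list, and 3 of its 6 DEGs lay below all 11 WT libraries. In sum the list stood at 5914 and 5981 in Wstf∆ and at 5317 and 5693 in Rsf1∆, and none of its genes was a DEG of the direct contrast (3.16% of all genes lower and 4.62% higher).

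Of 15 primitive endoderm genes tested, 8 were decreased DEGs (6.57% of all genes) and none increased, with a median log2 fold change of -1.31. The follistatin gene Fst, whose product binds activin, fell from 27.6 and 25.7 to 3.03 and 2.63 normalized CPM (-3.23), and the receptor gene Pdgfra from 43.8 and 49.4 to 11.6 and 10.1 (-2.10). The endoderm transcription factors followed, with Sox17 at -2.19, Foxa2 at -2.15, Gata4 at -1.60 and Gata6 at -1.49. Of the other members, chosen after their values were seen, Cubn was at 77.5 and 121 in WT and at 78.7 and 90.4 in Wstf∆ (log2 fold change -0.23, not passing), and Hnf4a was at 4.31 and 2.50 against 6.57 and 5.49 (0.82, edgeR adjusted p of 0.00891). Without WT replicate 1 the log2 fold change of Hnf4a was 1.27, beyond 2-fold. Among the 8 decreased genes, Gata4, Srgn and Sparc lay inside the range of the other 9 WT libraries, for Gata4 23 to 110 normalized CPM against 30.1 and 35.1 in Wstf∆. In sum over the list the Wstf∆ libraries (964 and 968) lay between the lowest and the highest of the other WT libraries (831 and 2118), and Rsf1∆ of the same batch stood at 927 and 915. In the direct contrast 1 of the 15 was lower (3.16% of all genes) and 3 were higher in Wstf∆ than in Rsf1∆ (4.62% of all genes). With these 9 WT libraries as the control and a model without batch, 1 primitive endoderm gene (Fst) and no basement membrane gene was a DEG, whereas 6 of the YAP and SRF list were (of all 15651 genes, 263 were decreased and 169 increased). That model counts the differences between batches as error, and Acta2 (log2 fold change -4.45) and Acta1 (-2.49) were among those whose call was lost. Col4a1 stood at -1.56 (edgeR adjusted p of 0.0386) and Gata4 at -0.78 (0.278).

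**Figure D3:**
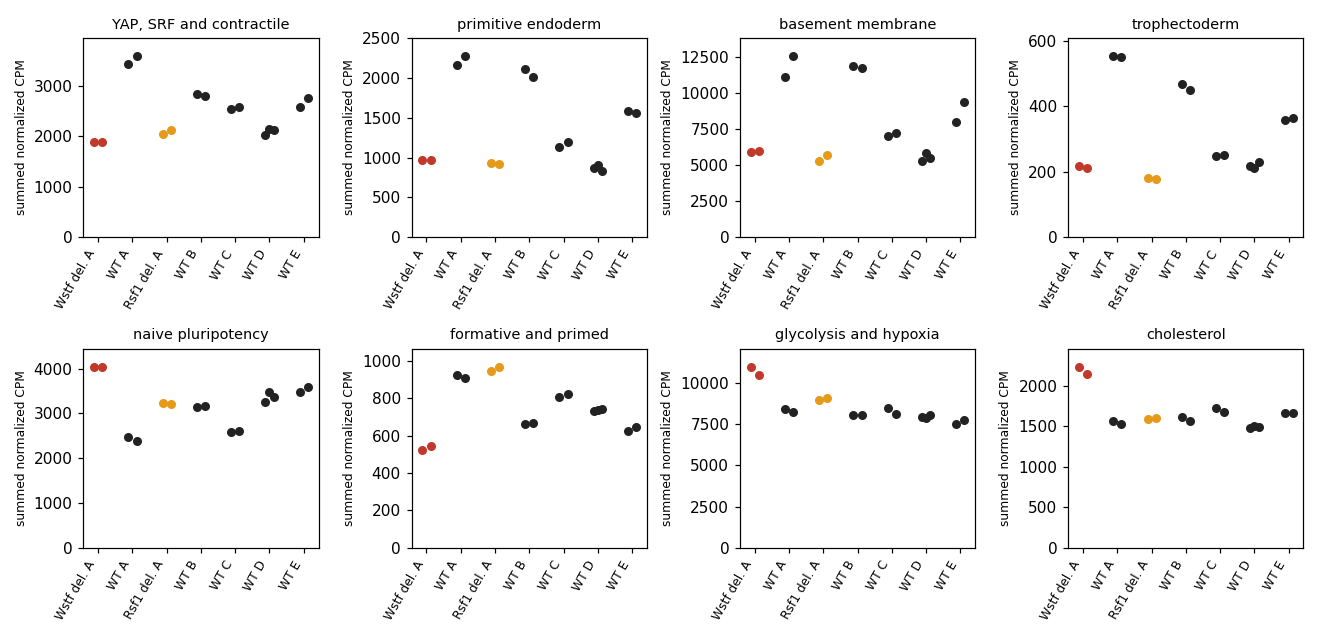
Summed normalized CPM over the members of 8 gene lists in each library of Wstf∆ (red), Rsf1∆ (orange) and WT (black, batches A to E), on linear axes that start at 0. Wstf∆ lies outside all 11 WT libraries for the contractile, naive, formative, glycolysis and cholesterol lists, and inside their range for primitive endoderm, basement membrane and trophectoderm.

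Further decreased genes were found among abundant genes and in other lists. Adhesion genes as lists moved less. Of 25 integrins, 3 were decreased and 2 increased DEGs, and of 19 epithelial adhesion genes 2 were decreased (6.57% of all genes decreased and 3.87% increased). Among abundant genes, Thbs1, coding for thrombospondin-1, fell from 118 and 134 to 4.05 and 3.88 normalized CPM (log2 fold change -4.98), Clu (clusterin) from 397 and 366 to 26.2 and 22.3 (-3.98) and the tissue factor gene F3 from 147 and 151 to 9.03 and 11 (-3.89). Loxl2, which crosslinks collagen, fell from 154 and 153 to 20.6 and 17.9 (-3.00), and annexin A2 (Anxa2) from 177 and 176 to 23.1 and 19.2 (-3.06). All of them lay below all 11 WT libraries. In Rsf1∆, Thbs1 stood at 15.1 and 15.8, Clu at 73.3 and 71.9 and F3 at 34.3 and 30.1, between WT of batch A and Wstf∆. Of 15 mesenchymal genes, 5 were decreased (6.57% of all genes), among them the hyaluronan receptor Cd44 (-3.63), N-cadherin (Cdh2, -3.19) and Axl (-2.02), and 1 was increased, Tgfbi, from 13 and 13 to 50.1 and 48.9 (1.93). Without a minimum fold 6 of the 15 passed downwards (18.3% of all genes) and 5 upwards (16.4%). In sum the list rose from 1111 and 1369 in WT to 1650 and 1661 in Wstf∆, with 692 to 1528 in the other 9 WT libraries. Against the other 9 WT libraries, Loxl2 (-1.74, edgeR adjusted p of 0.0321), Cd44 (-2.001, 0.0480) and Axl (-1.24, 0.178) lost their call. Collagen family members held 12 decreased DEGs (6.57% of all genes) and 1 increased DEG (3.87%) among 37 tested, and Col4a1, Col4a2 and Col4a5 among them are basement membrane DEGs counted above. Of these DEGs, 4 of the mesenchymal and 7 of the collagen genes lay outside all 11 WT libraries. In the direct contrast 1 mesenchymal gene was lower and 2 were higher in Wstf∆ than in Rsf1∆. For the collagens 1 was lower and 3 were higher (3.16% of all genes lower and 4.62% higher). Fibrillar matrix and fibroblast genes held 5 decreased and 2 increased DEGs among 12 tested (6.57% and 3.87% of all genes). Their sum went from 951 and 1201 in WT to 1314 and 1318 in Wstf∆. Of 24 Wnt ligands and Frizzled receptors, 7 decreased (6.57% of all genes), with Wnt4 from 11.7 and 11.7 to 0.578 and 0.659 (-4.23) and Wnt7b from 35.5 and 31.9 to 7.44 and 7.68 (-2.15), and Wnt6 increased (1.24, and 0.98 against the other 9 WT libraries). Of these 8 DEGs, 4 lay outside all 11 WT libraries.

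**Figure D4:**
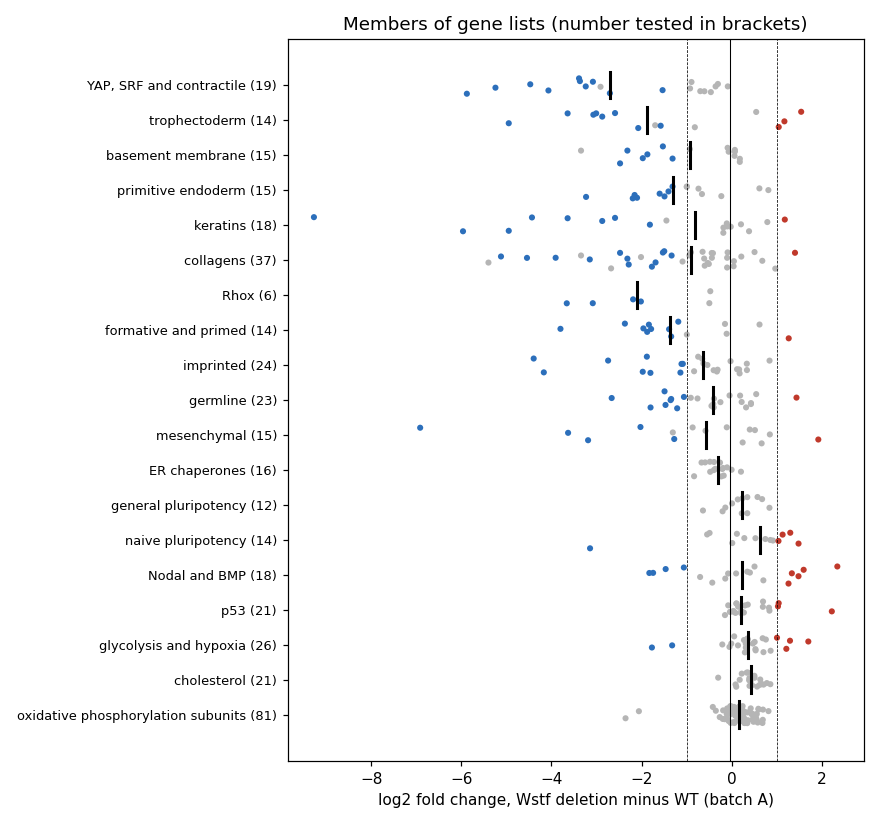
Log2 fold change of Wstf∆ against WT of batch A for each tested member of 19 gene lists, with red for increased and blue for decreased DEGs, grey for the others, thick bars for the list median, a thin line for the median of all genes and dashed lines at 2-fold. All 19 members of the YAP, SRF and contractile list lie left of 0 (Vcl and Tagln2 turn sign with the other 9 WT libraries as the control), and 20 of the 21 cholesterol genes lie right of it.

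None of the 12 genes of the general pluripotency network was a DEG, and those that passed did so mostly upwards. Pou5f1, coding for OCT4, stood at 1076 and 1048 normalized CPM in WT and at 1355 and 1351 in Wstf∆ (log2 fold change 0.35), Sox2 at 307 and 304 against 466 and 445 (0.58) and Nanog at 385 and 373 against 612 and 599 (0.68). An increase passed without a minimum fold for 7 of the 12 (16.4% of all genes), and a decrease for Lin28a alone (-0.64), the RNA-binding protein that blocks let-7 processing. Utf1 had the highest value (0.84). In sum over the list Wstf∆ (5438 and 5391) lay within the other 9 WT libraries (4679 to 5759), and Pou5f1 itself did so too (990 to 1605).

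Genes of the naive state rose further. Among 14, 4 were increased DEGs (3.87% of all genes) and 1 was decreased (6.57%), with a median of 0.64. Tbx3, a T-box repressor, rose from 76.8 and 77.6 to 220 and 213 normalized CPM (log2 fold change 1.49 ± 0.07). Klf4, a direct STAT3 target and reprogramming factor, rose from 133 and 121 to 316 and 312 (1.30), and Tfcp2l1, a further target of LIF signalling, from 542 and 540 to 1189 and 1184 (1.13). These 3 genes lay above all 11 WT libraries. Tcl1 was increased as well (1.04), but one of its Wstf∆ libraries (78.7 and 72.6) lay below the highest of the other WT libraries (76.6). Klf5 (0.92), Prdm14 (0.86) and Esrrb (0.75) rose within 2-fold. Dppa3, a maternal factor that keeps DNA unmethylated, was the exception, and fell from 3.99 and 3.79 to 0.650 and 0.220 (-3.14). LIF and STAT3 targets as a list held 2 increased DEGs (3.87% of all genes), which were the same Klf4 and Tfcp2l1, and 9 of its 15 genes passed upwards without a minimum fold (16.4% of all genes). In the direct contrast none of the 14 naive genes was higher (4.62% of all genes) and 1 was lower (3.16%) in Wstf∆ than in Rsf1∆, counts near these shares. With the other 9 WT libraries as the control, no naive gene was an increased DEG (169 of all 15651 genes), and the log2 fold change of Klf4 was 0.78 (edgeR adjusted p of 0.0146).

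Formative and primed genes moved down, with 9 decreased DEGs among 14 (6.57% of all genes), 1 increased (3.87%) and a median log2 fold change of -1.36. Lef1, a transcription factor of Wnt signalling, fell from 6.70 and 6.59 to 0.289 and 0.659 normalized CPM (-3.80). Otx2, which drives the exit from the naive state, fell from 32.0 and 31.4 to 11.7 and 12.5 (-1.39), and its partner Pou3f1 (OCT6) from 27.7 and 24.2 to 7.01 and 8.05 (-1.79). Zic2 (-1.96), Grhl2 (-1.87), Sall2 (-1.84) and Fgf5 (-2.37) were further members. Tcf15 ran against the list and rose from 30.7 and 27.2 to 66.1 and 73.6 (1.27). Of the 10 DEGs, 8 lay outside the range of all WT libraries, and Tcf15 and Fgf5 did not. Fgf5 stood at 0.361 and 0.439 in Wstf∆ and at 0.228 to 0.700 in the other 9. Against these 9 WT libraries Tcf15 was not called (0.53, edgeR adjusted p of 0.139). In the direct contrast with Rsf1∆, 8 of the 14 were lower in Wstf∆ as DEGs (3.16% of all genes), led by Lef1 at -4.62. With the other 9 WT libraries as the control, 3 formative genes were decreased DEGs (263 of all 15651 genes).

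**Figure D5:**
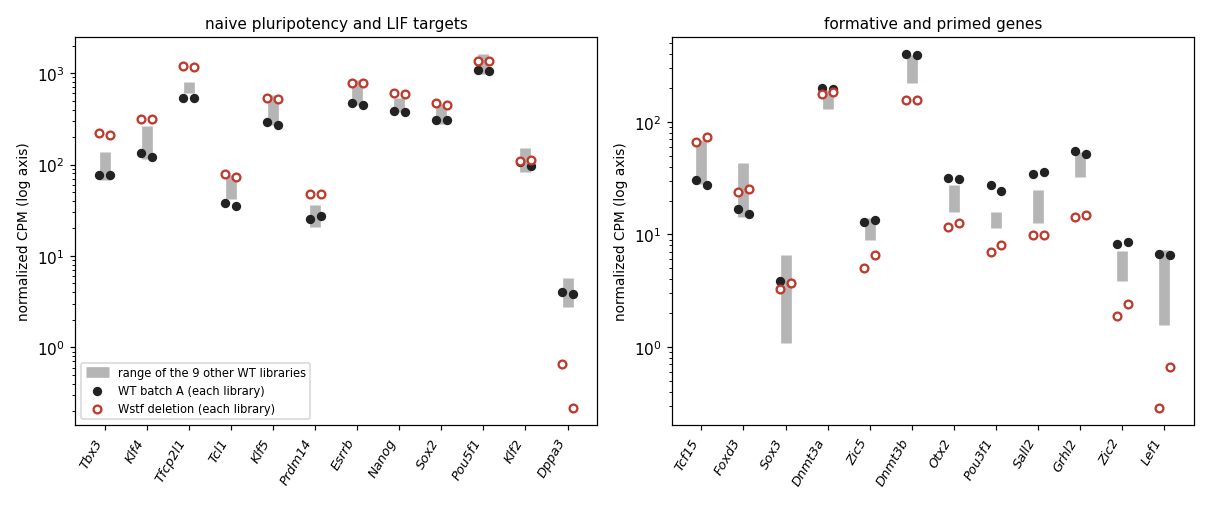
Normalized CPM (log axis) of each library for naive and general pluripotency genes (left) and for formative and primed genes (right), with filled points for WT of batch A, open red points for Wstf∆ and grey bars for the range of the other 9 WT libraries. Tbx3, Klf4 and Tfcp2l1 lie above the grey bar in Wstf∆ and Zic2, Grhl2 and Lef1 lie below it.

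Signalling genes changed in both directions. In the Nodal and BMP list 5 of 18 genes were increased (3.87% of all genes) and 4 decreased (6.57%), and the same shares of all genes stand behind the ERK and Notch counts that follow. The rising genes were ligands and inhibitors, with Bmp7 from 1.72 and 1.89 to 8.67 and 9.73 normalized CPM (log2 fold change 2.35), Bmp4 from 47.9 and 47.7 to 110 and 119 (1.26), the inhibin subunit Inhbb from 119 and 117 to 299 and 297 (1.34), the Nodal inhibitor Lefty2 from 22.1 and 21.4 to 67.1 and 65.0 (1.60) and the inhibitory Smad7 from 52.5 and 50.9 to 144 and 146 (1.49). Decreased members included Id2, from 75.0 and 73.9 to 23.3 and 18.7 (-1.83), Id3 (-1.46) and Foxh1 (-1.06), while Id1 passed upwards (0.51). Of the ERK-responsive genes Dusp4 (-1.93), Egr1 (-1.75), Phlda1 (-1.29) and Dusp5 (-1.01) were decreased and Etv1 was increased (1.06), among 17 tested. In the Notch list the receptor gene Notch4 rose from 5.66 and 5.08 to 24.3 and 25.7 (2.22) and the target Hes1 from 30.3 and 28.0 to 62.9 and 61.3 (1.09), and no member of the 11 was decreased as a DEG. With the other 9 WT libraries as the control, 2 genes of the Nodal and BMP list were increased DEGs (Lefty2 and Smad7) and none was decreased, against 169 and 263 of all 15651 genes. Bmp7 then missed the limit narrowly (1.66, edgeR adjusted p of 0.0102). Bmp4, within the range of these libraries, was then at 0.55 (edgeR adjusted p of 0.259), Egr1 at -1.33 (0.0426) and Phlda1 at -0.64 (0.487), and Id2 (-0.99), Inhbb (0.62) and Hes1 (0.57) were within 2-fold.

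Among imprinted genes, 9 of 24 were decreased DEGs (6.57% of all genes) and none increased, with a median log2 fold change of -0.64. H19, a long noncoding RNA expressed from the maternal copy, fell from 190 and 191 normalized CPM to 9.32 and 8.78 (-4.39), and its neighbour Igf2, expressed from the paternal copy, from 91.7 and 94.2 to 13.7 and 14.1 (-2.74). H19 lay below the other 9 WT libraries (94.3 to 127), whereas Igf2 lay above the lowest of theirs (8.98). The neuronatin gene Nnat (-4.17), the retrotransposon-derived Peg10 (-1.97), Usp29 (-1.88), Peg3 (-1.80), Mirg (-1.14), Meg3 (-1.11) and Snrpn (-1.08) completed the 9. Maternally and paternally expressed genes were thus both among them. Against Rsf1∆ directly, 8 of the 24 were lower in Wstf∆ (3.16% of all genes). With the other 9 WT libraries as the control, 5 of the 24 were decreased DEGs (263 of all 15651 genes). Mirg and Meg3 are neighbours whose transcripts lie in one cluster, and Usp29 and Peg3 are likewise neighbours, so that these pairs are not separate loci.

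Of 16 DNA methylation genes 2 were decreased DEGs (6.57% of all genes) and none was increased. Dnmt3l, the catalytically inactive cofactor, fell from 342 and 338 to 48.6 and 51.8 normalized CPM (log2 fold change -2.76) and the methyltransferase gene Dnmt3b from 398 and 397 to 157 and 157 (-1.34). Both lay below all 11 WT libraries, although Dnmt3b was within 2-fold against the other 9 (-0.92). Dnmt3a, at 202 and 198 in WT and at 177 and 184 in Wstf∆, did not pass (-0.15, edgeR adjusted p of 0.0453). Of 23 germline genes 8 were decreased (6.57% of all genes) and 1 was increased (3.87%). They were led by Tex101 (-2.66), the piRNA factor Tdrd1 (-1.80), Tex19.1 from 77.6 and 75.0 to 26.9 and 27.5 (-1.49) and the synaptonemal complex gene Syce1 from 43.3 and 42.5 to 15.5 and 15.6 (-1.47). The retinoid-induced Stra8 rose from 8.46 and 8.40 to 24.8 and 21.0 (1.44), but was not called against the other 9 WT libraries (0.94, edgeR adjusted p of 0.0963). In the direct contrast 11 of the 23 germline genes were lower in Wstf∆ than in Rsf1∆ (3.16% of all genes) and 1 was higher (4.62%), with Syce1 at -2.12. The meiotic cohesin Stag3 also fell, from 72.4 and 78.4 to 21.2 and 22.7 (-1.78). Of 6 reproductive homeobox genes of the Rhox cluster on the X chromosome, 4 were decreased (6.57% of all genes), with Rhox5 from 90.3 and 87.1 to 22.6 and 21.3 (-2.01) and Rhox6 from 8.78 and 9.73 to 0.650 and 0.805 (-3.66). In sum the Rhox genes stood at 25.4 and 25.5 in Wstf∆ and at 19 and 20.8 in Rsf1∆, and 1 was lower in the direct contrast (3.16% of all genes). Rhox genes are near-identical copies in part, and how reads shared between copies were counted is not given in the sources used here.

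In the metabolic lists below most genes lay above 0, with list medians from 0.17 (oxidative phosphorylation) to 0.42 (cholesterol synthesis). Of 26 genes of glycolysis and the hypoxia response, 16 passed upwards without a minimum fold (16.4% of all genes) and 4 were increased DEGs (3.87%). The prolyl hydroxylase gene Egln3 rose from 17.1 and 15.3 to 55.6 and 50.1 normalized CPM (log2 fold change 1.70), the hexokinase gene Hk1 from 56.3 and 59.6 to 134 and 135 (1.22), the glucose transporter gene Slc2a1 from 368 and 352 to 756 and 692 (1.01) and Aldoc from 8.38 and 7.36 to 20.4 and 18.4 (1.30). All 4 lay above all 11 WT libraries, although Hk1 was within 2-fold against the other 9 (0.79). The collagen prolyl hydroxylases P4ha2 (-1.77) and P4ha1 (-1.32), on the same list, were the only decreased DEGs in it. Both lay within the range of the other 9 WT libraries and were not called with these as the control (-0.94 and -0.54, edgeR adjusted p of 0.109 and 0.304). Of the cholesterol synthesis genes 20 of 21 lay above 0, with 16 passing upwards (16.4% of all genes) and a median of 0.42, but none was a DEG. Hmgcs1, coding for a synthase early in the pathway, went from 207 and 197 to 364 and 331 (0.78) and the master regulator Srebf2 from 213 and 211 to 350 and 344 (0.71). In sum the list stood at 2236 and 2146 in Wstf∆, above the 1477 to 1729 of the other 9 WT libraries. Of 81 subunits of oxidative phosphorylation, 24 passed upwards (16.4% of all genes) and none downwards, with a median of 0.17. Their sum in Wstf∆ (11904 and 12082) lay within the other 9 WT libraries (11340 to 13552), below which WT of batch A stood (11035 and 10470), and Rsf1∆ was at 12167 and 12074.

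Stress lists ran in both directions. Of 21 p53 targets 10 passed upwards (16.4% of all genes) and none downwards, and 3 were increased DEGs (3.87% of all genes). They were the cytokine gene Gdf15, from 1.12 and 0.904 to 4.84 and 4.68 normalized CPM (log2 fold change 2.23), and the proapoptotic BH3-only genes Pmaip1, from 117 and 108 to 242 and 223 (1.05), and Bbc3 (1.03). Bbc3, at 23.4 and 28.0, lay within the other 9 WT libraries (7.17 to 36.5). With these as the control, the log2 fold change was 0.86 for Gdf15 and 0.47 for Bbc3, and neither was called (edgeR adjusted p of 0.293 and 0.457). Cdkn1a, coding for the cell cycle inhibitor p21, was at 56.7 and 51.5 against 56.9 and 59.6 (0.11, not passing), and among 24 replication and 16 mitosis genes none was a DEG. Of 16 chaperones of the endoplasmic reticulum, 10 passed downwards (18.3% of all genes) and none upwards, without a DEG, and their sum was 5107 and 4980 in Wstf∆ and 4881 and 4649 in Rsf1∆. Of 20 protein-coding genes for RNA polymerase I and the nucleolus, 9 passed downwards (18.3% of all genes), 1 passed upwards (16.4%) and none was a DEG, with a median of -0.23. H2ax, the histone that WSTF phosphorylates, rose from 161 and 146 to 308 and 344 (1.08), within the 164 to 432 of the other WT libraries.

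The genes that rose furthest formed no single list. The predicted pseudogene Gm6402 was at 0.479 and 0.0431 normalized CPM in WT and at 41.7 and 42.8 in Wstf∆. Ndufa4l2, a hypoxia-induced mitochondrial protein, rose from 0.199 and 0.258 to 9.75 and 6.95 (log2 fold change 5.17), and Cadps, which primes vesicles for exocytosis, from 0.997 and 1.08 to 23.7 and 22.5 (4.47). Pax2, the kidney and midbrain homeodomain factor, had 6 counts in WT and 95 in Wstf∆, a ratio of 27.8 per effective library with a counting interval of 12.3 to 77.6. Among abundant genes, transglutaminase 2 (Tgm2) rose from 19.9 and 18.5 to 159 and 143 (2.97), the endocytic receptor gene Lrp1 from 25.7 and 36.3 to 173 and 175 (2.49), the carnitine palmitoyltransferase gene Cpt1a, the gate of fatty acid oxidation, from 29.8 and 28.7 to 131 and 125 (2.13) and the adhesion molecule gene Mcam from 37.5 and 39.5 to 133 and 139 (1.82). Igsf21, Fignl2, Tns1 and Adgrb1 rose by log2 fold changes between 2.29 and 2.90. Acvrl1, a type I receptor for BMP9, rose from 1.08 and 1.25 to 10.7 and 9.59 (3.12). Ndufa4l2 (mm10, positions 127509274 to 127517154) and Lrp1 (127538157 to 127621148) lie close together on chromosome 10. Fignl2 (101050192 to 101078584) and Acvrl1 (101128522 to 101145336) do so on chromosome 15, so that these pairs are not separate loci. All genes named in this group lay above all 11 WT libraries, and all but Mcam were at least 2-fold higher than in Rsf1∆, for Tgm2 by 2.87 on the log2 scale.

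At the other end, 40 decreased DEGs had no read in either Wstf∆ library. Krt23, with 75 and 75 counts in WT, was at least 14.3-fold lower, and the leukotriene receptor gene Cysltr1 (50 and 43 counts) at least 8.82-fold and the cadherin gene Cdh10 (39 and 33 counts) at least 6.82-fold lower, against a floor of 3 counts per Wstf∆ library. The caveolin gene Cav1 (30 and 29 counts) was at least 5.61-fold lower, but a WT library of another batch also had none. Krt14 had 124 counts in WT and 1 in Wstf∆, a ratio of 70.6 with a counting interval of 12.4 to 2812.

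Other ISWI genes stayed within 2-fold with all libraries in the fit. Smarca5, the ATPase partner of WSTF, was at 304 and 296 normalized CPM in WT and at 312 and 284 in Wstf∆ (log2 fold change -0.01, not passing). Of the 14 genes of the family, Baz1b was the one DEG. Hmgxb4, from 143 and 142 to 75.8 and 70.9 (-0.96, and -1.007 without Wstf∆ replicate 1), and Baz1a, coding for ACF1, from 70.5 and 76.9 to 41.7 and 41.3 (-0.83), passed downwards, as did Smarca1 (-0.45) and Rbbp7 (-0.40), and Baz2a (TIP5, 0.56), Baz2b (0.77) and Chrac1 (0.52) passed upwards. Rsf1, Bptf, Cecr2, Pole3 and Rbbp4 did not pass. Of the genes around Baz1b in the region that is deleted in Williams syndrome, 22 of 24 were tested. The elastin gene Eln, with 45 counts in WT and 3 in Wstf∆, was lower by a ratio of 8.55 (counting interval 2.74 to 43.0), Fkbp6 fell from 2.19 and 1.77 to 0.795 and 0.585 (-1.52) and Vps37d rose from 0.957 and 0.474 to 2.24 and 2.41 (1.68). The general transcription factor genes Gtf2i (0.14, not passing) and Gtf2ird1 (0.26) stayed within 2-fold.

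By chromosome, the X carried the largest share of decreased DEGs among those with over 100 tested genes. Of its 552 tested genes, 70 were decreased (12.7%) and 8 increased (1.45%), and their median log2 fold change was -0.24. On the autosomes between 4.29% and 9.68% were decreased, and their medians lay between -0.11 and 0.02. Against Rsf1∆ the median of the X was -0.12, and 49 of its 70 decreased genes lay below all 11 WT libraries. Y-linked genes summed to 166 and 169 normalized CPM in WT and to 118 and 111 in Wstf∆, with 147 to 218 in the other 9 WT libraries, and none of the 3 members tested was a DEG. Uba1y, a Y-linked gene outside this list, had 41 and 44 counts in WT and none in Wstf∆ and was a decreased DEG, at least 8.09-fold lower. In Rsf1∆ the list summed to 0.043 and 0.041, and Uba1y had no read.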

How the data were processed

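Polyadenylated RNA from mouse embryonic stem cells was sequenced, and per the labels and the study's methods base calls came from bcl2fastq 2.17 and reads were aligned with HISAT2 to mm10 and counted over known genes by the authors. The deposited values are raw counts per gene without normalization, 24594 genes in 24 libraries, and the use of strand and of reads with several matches is not given in the sources used here. No per-sample column was left unmapped (0). Entrez identifiers were matched to RefSeq symbols (GRCm38.p6) for 24570 genes.

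Counts were fitted over all 24 libraries in R 4.3.3 with edgeR 4.0.16 (quasi-likelihood test, legacy form, limma 3.58.1), batch and genotype as terms, TMM factors and the default expression filter by genotype, which left 15682 genes. All adjusted p-values are Benjamini-Hochberg values from this edgeR fit over all genes tested, two-sided. The limits for a DEG (log2 fold change beyond 1 or -1, adjusted p below 0.01) are those of the study. The fit estimated a coefficient of variation of 0.0567 between replicates. On simulated counts for 15554 genes with 200 changed, the fit recovered 86 of 100 genes changed 2-fold (53 as DEGs) and 98 of 100 changed 4-fold, with 2 false calls on p and 0 false DEGs. The changed genes were drawn only from genes above a minimum mean count in the 4 libraries, so that recovery of low-count changes was not tested. They were also fewer than the 607 and 1031 DEGs of the data.

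Replicates correlated at r = 0.997 on the log2 scale (across genes, which are not independent replicates) and differed by more than sampling noise (chi-square per gene of 4.59 in WT and 1.38 in Wstf∆). The study describes its RNA-seq replicates as independent and its experiments as biological replicates, the labels do not say what separates them, and all are of one line per genotype, so that p-values measure the spread within these lines. Genes at 0 in Wstf∆ were given a bound from 3 counts per library, and genes with at most 3 counts in each library of the lower group, but not 0 in both, a ratio with an exact 95% interval, both covering counting error only. Genes were named by rank of fold change among DEGs (15 per direction over all genes and over those of at least 50 normalized CPM, 4 per list and direction, list extremes, and all ISWI, Williams region and general pluripotency genes), and further list members were named after their values were seen. A few genes are counted in the lists but not reported here. The comparison, the members and the lists were chosen with earlier results of these data known. Alternatives covered DESeq2 1.42.0, normalization, filters, libraries in the fit, fold limits, depth, a replicate block and leaving out each replicate.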

Additional observations from a re-analysis of the deposited data

Results flagged for a closer look

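A total of 12 genes given here were DEGs in opposite directions in Wstf∆ and Rsf1∆, each against the same WT libraries of batch A. Since they were chosen for this, a direct difference of more than 4-fold between the deletions is fixed by the choice, and the differences are given as a description with no test. Higher in Wstf∆ than in Rsf1∆, as log2 differences, were Lefty2 (3.06), Krt17 (3.04), Synpo (2.95), 2310043M15Rik (2.89), Arhgap30 (2.65), Vil1 (2.42), Ccdc68 (2.35) and Wnt6 (2.27). Lower were Ccno (-4.75), Fkbp6 (-2.80), Neurog3 (-2.76) and Dmrt1 (-2.19). Lefty2, the Nodal inhibitor, stood at 67.1 and 65 normalized CPM in Wstf∆, 22.1 and 21.4 in WT and 8.12 and 7.69 in Rsf1∆. Ccno, a cyclin-like gene of multiciliated cells, had a log2 fold change of -3.53 in Wstf∆ and 1.22 in Rsf1∆, each against WT. Dmrt1, a regulator of germ cells, had -1.13 and 1.06. With the other 9 WT libraries as the control, the Wstf∆ calls of Krt17 (0.34), Ccno (-2.48, edgeR adjusted p of 0.0253) and Neurog3 (-1.10) were lost. So were those of 2310043M15Rik (0.70), Ccdc68 (1.42), Vil1 (0.63), Wnt6 (0.98) and Dmrt1 (-0.65), whereas Lefty2 kept its call. Neurog3 and Vil1 each lost their call in Wstf∆ when either Wstf∆ library or WT replicate 1 was left out, with log2 fold changes of -1.23 to -1.02 (Neurog3) and 0.86 to 1.05 (Vil1), and Ccdc68 without Wstf∆ replicate 1 (0.96). Each deletion is one line, and a difference between the lines cannot be told apart from one between the deletions.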

How the results depend on the processing

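Against 607 increased and 1031 decreased DEGs and 1221 between Wstf∆ and Rsf1∆, another test, scaling, filter, set of libraries or thinned depth gave counts within 1.5 times. A model with genotype only and all 11 WT libraries as control gave 203, 297 and 468, and the other 9 WT libraries as control, an alternative chosen after seeing the data, gave 169, 263 and 505, of which 149 increased and 253 decreased genes were shared with the original calls. Both models count differences between batches as error, and their part and that of the WT libraries of batch A in the lower counts was not separated. Without a fold limit the counts were 2567, 2877 and 5218, with a log2 limit of 2 they were 92, 501 and 285, with the 2-fold limit built into the test 165 and 450, and with both Wstf∆ libraries outside all 11 WT libraries 450 and 647. Leaving out each replicate gave 522 to 572 increased, 824 to 934 decreased and 983 to 1209 between the deletions. The replicate numbers do not pair the libraries (correlation of same-numbered deviations 0.0426), and a replicate block gave 583, 988 and 1144. Baz1b kept its call under all alternatives run. Smarca5, which did not pass, turned sign with only 4 libraries (0.0093), with the 6 libraries of batch A (0.011), after thinning (0.00093), and without Wstf∆ replicate 2 (0.057) or WT replicate 1 (0.0073), with a range from -0.079 to 0.057 over the replicates left out, and the cause was not tested. With genotype only, and with the other 9 WT libraries, the sign turned for Vcl (0.049 and 0.15), Tagln2 (0.12 and 0.16), Lamb2 (0.045 and 0.063), Cubn (0.33 and 0.48), Dnmt3a (0.055 and 0.096) and H2aw (-1.46 and -1.71). Over the replicates left out, log2 fold changes ranged from -0.036 to 0.17 for Agrn, -0.16 to 0.63 for Hspg2, -0.077 to 0.24 for Lama5 and -0.52 to 0.13 for Cubn. Calls near the 2-fold limit were lost without Wstf∆ replicate 1 (Slc2a1 0.95, Pmaip1 0.99, Tcl1 0.98, Eomes 0.98, Etv1 0.96, Foxh1 -0.98), Wstf∆ replicate 2 (Bbc3 0.90, Dusp5 -0.83), WT replicate 1 (Eomes 0.83, Etv1 0.94) or WT replicate 2 (Slc2a1 0.98, Pmaip1 0.99, Tcl1 0.99, Meg3 -0.94, Dusp5 -0.96), and low-count calls of Eln, Fkbp6, Tex101 and Vps37d were lost without at least 1 library, as was that of Col4a5 without Wstf∆ replicate 1 (-1.25), Wstf∆ replicate 2 (-1.85) or WT replicate 2 (-1.17).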

Other observations

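Several neuronal and guidance families held DEGs in both directions, against 3.87% of all genes increased and 6.57% decreased. Of 28 semaphorins and plexins, 4 were increased and 5 decreased DEGs, with Sema5b at a log2 fold change of 2.40. Of 61 potassium channel genes, 8 were increased and 5 decreased, the latter a share near that of all genes, and of 28 glutamate and GABA receptor genes 3 were increased and 7 decreased. Cadherins held 6 decreased DEGs and 1 increased DEG among 15. In the neural marker list, summed over its markers, Wstf∆ stood at 112 and 107 normalized CPM, against 162 and 171 in WT of batch A and 103 to 140 in the other 9 WT libraries.

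None of the 78 mitochondrial ribosomal protein genes and 38 proteasome genes was a DEG. Among the 72 histone genes, with a median log2 fold change of 0.68 (0.19 with genes at 0 in a group set at their bound), 4 were increased DEGs, a share near that of all genes (3.87%). They were H1f10 (1.91), H2aw (1.22), H2bc4 (1.20) and H2ax (1.08), none of them outside all 11 WT libraries, and H2aw had a value of -1.71 with the other 9 WT libraries as the control, which did not pass (edgeR adjusted p of 0.37). Of 7 genes of the 2-cell-like state tested, all near or below 1 normalized CPM, 6 had a log2 fold change below 0, with a list median of -2.36, but none passed. In the direct contrast 3 of the 7 were lower in Wstf∆ than in Rsf1∆ (3.16% of all genes). Among other remodelers Smarca2, coding for the ATPase BRM, fell from 13.2 and 14.6 to 2.67 and 3.22 normalized CPM (log2 fold change -2.24), the one DEG of 29 (6.57% of all genes decreased). Against the other 9 WT libraries Smarca2 was not called (-1.34, edgeR adjusted p of 0.0243).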
